A study of Mus musculus with 6 samples.

Results

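The transcripts of 6 surface proteins that are used to sort blood stem cells and early progenitors were followed in mouse fetal liver progenitors with lowered Samd14. The genes, Slamf1, Cd48, Cd34, Ly6a, Cd27 and Esam, were taken by name, and each was found among the 24376 genes of the tables. RNA sequencing covered 3 shSamd14 and 3 control libraries of C57BL/6 mice. The shSamd14 cultures were infected with a retrovirus that carries a short hairpin RNA (shRNA, an RNA that lowers transcripts it pairs with) against Samd14, and the control cultures with a control shRNA whose target is not named in the labels. All cultures were started from progenitors isolated from E14.5 embryos, infected directly after isolation and cultured in StemPro-34 medium for 3 days, after which 200000 cells lacking CD71 and Ter119, surface proteins of maturing red cells, were taken per library. The gate on CD71 and Ter119 did not use any of the 6 proteins, so the cells can be a mixture of stem cells, progenitors and their early products. The labels do not state that the replicates of a group are separate animals or cultures, and the p-values then measure only the spread between these libraries, which may be technical.

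Mouse blood stem cells are classically sorted as cells that carry CD150 (the product of Slamf1) and lack CD48, within a fraction that carries Sca-1 (the product of Ly6a) and the stem cell factor receptor Kit. CD150 and CD48 belong to the SLAM family, immunoglobulin-type receptors that mostly bind their own kind on neighbouring cells. CD34 is a sialomucin of progenitors and vessel cells, CD27 is a receptor of the tumour necrosis factor family, and ESAM is an adhesion protein that stem cells share with endothelium and platelets. None of these proteins is exclusive to stem cells: CD150 is also known on megakaryocyte-erythroid progenitors and lymphocytes, and CD48 on most blood cells.

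Of the 6 genes, Slamf1 rose about 2-fold in shSamd14 and none fell. Cd48 was higher by a smaller amount and narrowly missed the threshold, and the other 4 did not pass it. In edgeR's quasi-likelihood test with an adjusted p under 0.05 over all genes, 1.32% of the 12670 genes tested were higher in shSamd14 and 1.26% were lower. The median log2 fold change of the 6 genes was 0.28, with 5 of 6 positive, against 0.01 over all genes tested, of which 51.6% were positive. The 6 genes were chosen with earlier results of these data known, so their median and counts are a description and not independent evidence. The 3 shSamd14 libraries lay above the 3 control libraries for 2 of the 6 genes, Slamf1 and Cd48, while 10.5% of all genes tested showed that separation and 10.2% the opposite one.

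The libraries held 23862151 to 26462797 estimated counts in shSamd14 and 20584169 to 24069711 in control. Samd14 itself had 41.9, 38.8 and 39.4 CPM (counts scaled to a common depth) in shSamd14 libraries, against 82.0, 82.1 and 83.8 CPM in control libraries, a mean of 0.484 of the control mean. Log2 expression correlated between libraries at 0.990 or more, within and between groups. All 6 genes passed the filter on low counts, but Slamf1, Ly6a, Cd27 and Esam are marked as low (under 150 counts in every library), with 12 to 105 counts per library, while Cd48 and Cd34 had 1029 to 1656. Each fold change is given on the log2 scale as shSamd14 over control.

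Per unit of transcript length the 6 genes covered a wide range. In TPM, which scales counts by transcript length and by depth, Cd48 had 88.7 ± 4.50 in shSamd14 and 71.9 ± 8.40 in control libraries (SD, n = 3 each), which placed it at the 84.5th percentile of the genes tested. Cd34 followed with 34.8 ± 7.26 TPM in shSamd14 and 34.6 ± 3.59 TPM in control. Ly6a had 4.62 ± 0.482 TPM in shSamd14 and 3.39 ± 1.12 TPM in control, at the 24.7th percentile. Slamf1, Esam and Cd27 lay together at the bottom, at the 15.7th, 14.9th and 14.7th percentiles, with single libraries between 0.65 and 2.76 TPM. Cd48, Cd34 and Ly6a were each apart from their neighbours in this order in every library, whereas Slamf1, Esam and Cd27 overlapped within the control group. In shSamd14 Slamf1 had 2.38 ± 0.338 TPM, Esam 1.82 ± 0.615 TPM and Cd27 1.68 ± 0.493 TPM, and these ranges also overlapped.

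**Figure D1:**
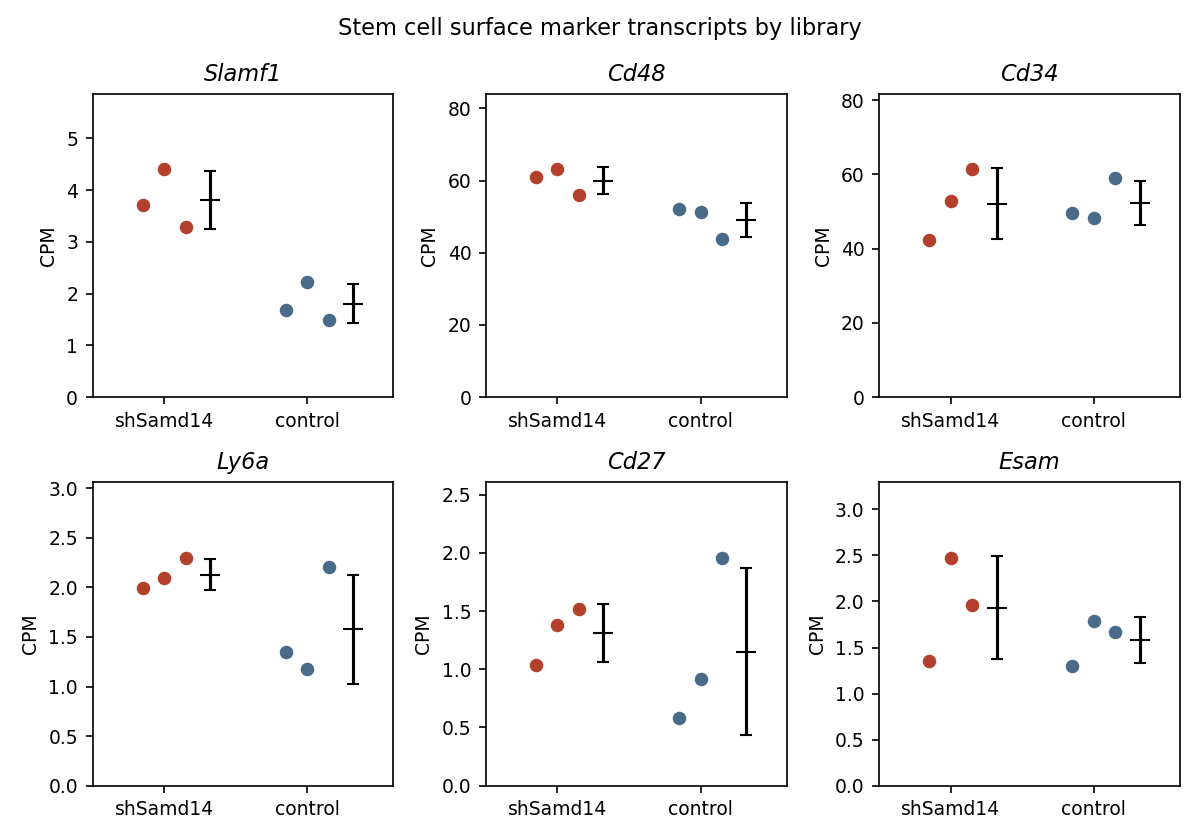
TMM-scaled CPM of the 6 genes in each library (points; shSamd14 left, control right), with the mean and SD of 3 libraries beside them. The shSamd14 points lie above all control points for Slamf1 (3.30 to 4.40 against 1.50 to 2.22 CPM) and Cd48 (55.9 to 63.1 against 43.7 to 52.1 CPM), and overlap with them for the other 4 genes.

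Slamf1 (ENSMUSG00000015316; mm10 chromosome 1, 171767127 to 171801184, plus strand) encodes CD150, a receptor that binds itself and signals through small adaptors of the SAP type. It had 3.71, 4.40 and 3.30 CPM in shSamd14 replicates 1, 2 and 3, against 1.69, 2.22 and 1.50 CPM in control replicates 1, 2 and 3. Every shSamd14 library was above every control library, and the lowest shSamd14 value was 1.83 times the control mean. These values rest on 93, 105 and 89 counts in shSamd14 and 35, 51 and 36 counts in control. The exact 95% Poisson intervals, which cover counting error only, ran from 71.5 at the lowest to 127 at the highest in shSamd14 and from 24.4 to 67.1 in control. These intervals are in counts and are not scaled for the smaller control libraries. The group means were 3.80 ± 0.557 CPM in shSamd14 and 1.80 ± 0.374 CPM in control (SD, n = 3 each). The log2 fold change was 1.07 (SE 0.20, 95% interval 0.64 to 1.50), a rise of 2.10-fold with a 95% interval of 1.56- to 2.83-fold. In edgeR's quasi-likelihood test this gave an adjusted p of 0.0102, rank 113 of the 12670 genes by p. Without shSamd14 replicate 2 the adjusted p was 0.0795 and without control replicate 1 it was 0.0543 in the same edgeR test, with log2 fold changes of 0.95 and 1.03, so the call rests on those libraries while the size does not.

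The 3′ untranslated region (UTR) of Slamf1 is shown because it holds a short word that was common among the genes that rose. The words CTGATTA and TGATTAA were found in an earlier search of the 3′ UTRs on these same libraries, so their share is a description and not independent evidence. Each gene's longest annotated 3′ UTR was read on the transcript strand only. There, 59.3% of 167 genes that rose held CTGATTA or TGATTAA, against 13.8% of 11520 genes that did not pass the test. These words overlap by 6 bases, and in Slamf1 they formed 1 site of 8 bases, CTGATTAA, at bases 656 to 663 of a 3′ UTR of 1561 bases. Ptpn11, the other gene of the SLAM signalling lists that rose, held the same 8 bases once, at bases 3198 to 3205 of a 3′ UTR of 3635 bases. The 8 bases are given in capitals with the flanking bases on each side, 5′ to 3′ in GENCODE M21 transcripts. The printed stretch of Slamf1 lies at mm10 chr1:171800269-171800296 (plus strand) and that of Ptpn11 at mm10 chr5:121130953-121130980 (minus strand):
Slamf1: gtgtggttctCTGATTAAgtcaaagcaa
Ptpn11: aattgtgactCTGATTAAtaaaagctgg
The 3′ UTRs of Cd48, Cd34, Ly6a, Cd27 and Esam, of 381 to 1485 bases, held neither word. They also held neither CAAGTGT nor AAGTGTA, which occurred in 57.3% of the 157 searched genes that fell and in 21.2% of those that did not pass. The 3′ UTR of Ptpn11, although it rose, also held CAAGTGT once, at bases 2290 to 2296. Of the other genes named below that rose, Cd59a, Pf4, Gp5, Treml1, Vwf and Clec1b, none held CTGATTA or TGATTAA. Phactr2 and Wdr89, also named below, held CTGATTA or TGATTAA and did not pass in edgeR. Among 1705 searched genes with CTGATTA or TGATTAA the median log2 fold change was 0.02, against 0.01 among the 10139 without. Of the 1705, 99 rose, and of the 10139, 68 rose. As the words were found on these same libraries, this contrast is a description only. A change of the size of Slamf1 or larger was found in 0.235% of the genes with a word, Slamf1 itself included, and in 0.158% of those without. What part the word has in the Slamf1 value was not tested.

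Cd48 (ENSMUSG00000015355; mm10 chromosome 1, 171682009 to 171705258, plus strand) encodes a SLAM family protein that is held in the membrane by a lipid anchor and binds CD244. It had 61.0, 63.1 and 55.9 CPM in shSamd14 replicates 1, 2 and 3, against 52.1, 51.3 and 43.7 CPM in control replicates 1, 2 and 3. The groups did not overlap, with a gap between the lowest shSamd14 and the highest control library of about the SD within a group. Means were 60.0 ± 3.67 CPM in shSamd14 and 49.0 ± 4.64 CPM in control (SD, n = 3 each). The log2 fold change of 0.29 (SE 0.08) corresponded to 1.22-fold, with a 95% interval of 1.09- to 1.37-fold. It did not pass edgeR's quasi-likelihood test (adjusted p = 0.0672) and passed in DESeq2 (adjusted p = 0.0456) and, in edgeR, without shSamd14 replicate 3 (adjusted p = 0.0488) or with no filter on low counts (adjusted p = 0.0133). Each library held 1050 or more Cd48 counts, and their chi-square per degree of freedom was 3.79 in shSamd14 and 10.1 in control, above the 1 that counting noise alone would give.

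**Figure D2:**
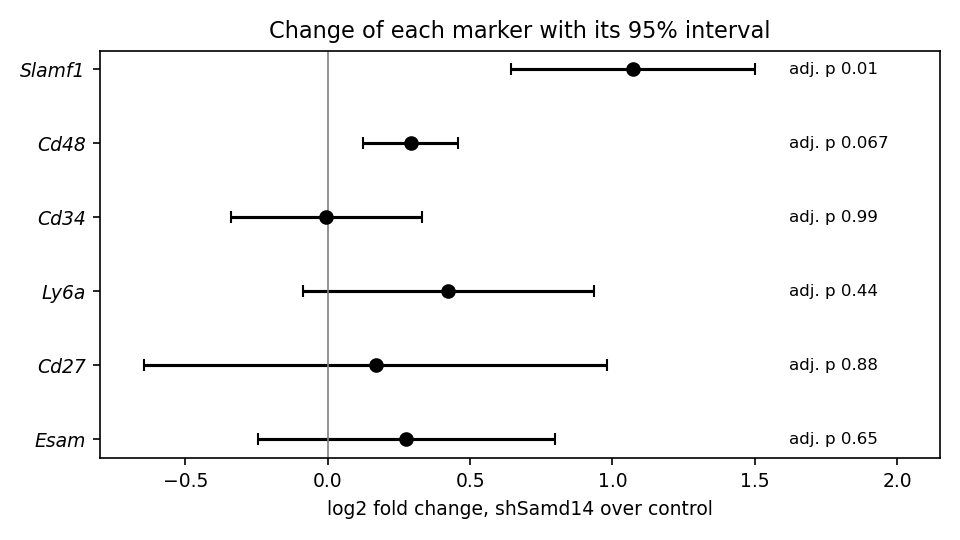
Log2 fold change of shSamd14 over control for each gene (points) with its 95% interval (bars), and the adjusted p of edgeR's quasi-likelihood test at the right. The intervals of Slamf1 (0.64 to 1.50) and Cd48 (0.12 to 0.46) lie above 0, and those of Cd34, Ly6a, Cd27 and Esam include it.

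Sorting reads CD150 and CD48 together, so their ratio was taken in each library. Slamf1 reached 2.58, 2.95 and 2.49 TPM per 100 TPM of Cd48 in shSamd14 replicates 1, 2 and 3, against 1.38, 1.83 and 1.45 in control replicates 1, 2 and 3. All 3 shSamd14 ratios were above all 3 control ratios. The ratio reuses the levels of Slamf1 and Cd48, and Slamf1 alone already separated the groups, so it is not separate evidence. The means were 2.67 ± 0.240 in shSamd14 and 1.55 ± 0.242 in control (SD, n = 3 each), a quotient of 1.72. A two-sided exact permutation test over the libraries gave p = 0.1, the smallest value that 3 against 3 libraries allow. In bulk RNA the ratio cannot tell a shift in the share of CD150-bearing cells from a change of RNA per cell, and the same holds for every level given here.

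**Figure D3:**
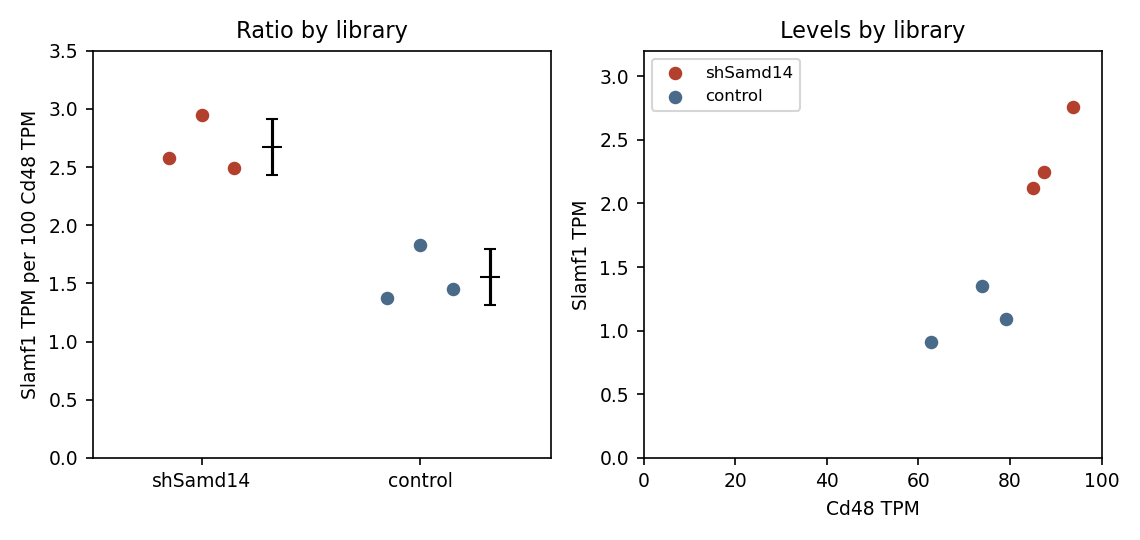
Left, Slamf1 TPM per 100 Cd48 TPM in each library with the mean and SD of 3 libraries (shSamd14 2.49 to 2.95, control 1.38 to 1.83). Right, Slamf1 TPM against Cd48 TPM by library. The 3 shSamd14 libraries are the highest in both genes.

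Cd34 (ENSMUSG00000016494; mm10 chromosome 1, 194938819 to 194961279, plus strand) encodes the sialomucin CD34, which is absent from the most dormant adult mouse stem cells and present on fetal stem cells and progenitors. It had 42.2, 52.8 and 61.4 CPM in shSamd14 replicates 1, 2 and 3, against 49.7, 48.2 and 59.0 CPM in control replicates 1, 2 and 3. The lowest and the highest of the 6 values were both from shSamd14 libraries, so the control values lay within the range of the shSamd14 group. Its log2 fold change was -0.005 (SE 0.14, 95% interval -0.34 to 0.33), which did not pass edgeR's test (adjusted p = 0.992). The interval allows a change of 0.791- to 1.26-fold. The spread within groups was far above counting noise, with a chi-square per degree of freedom of 53.5 in shSamd14 and 16.1 in control. An antisense gene, Gm16897, shares 148 exon bases with Cd34, and since use of strand is not given its reads cannot be told apart there. Gm16897 had 0.478 CPM in shSamd14 and 0.532 CPM in control.

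Ly6a (ENSMUSG00000075602; mm10 chromosome 15, 74994877 to 74998031, minus strand) encodes Sca-1, a small lipid-anchored protein whose gene is known to respond to interferon. It had 2.00, 2.10 and 2.30 CPM in shSamd14 replicates 1, 2 and 3, against 1.35, 1.18 and 2.21 CPM in control replicates 1, 2 and 3. Control replicate 3 lay between the shSamd14 libraries, so the groups overlapped through that 1 library. The log2 fold change was 0.42 (SE 0.24, 95% interval -0.09 to 0.93) and did not pass (edgeR, adjusted p = 0.445). Without control replicate 3 it was 0.75 (adjusted p = 0.129 in edgeR). Ly6a is 1 of a cluster of similar genes: 8.05% of the stretches of 50 bases in its transcript also occurred in transcripts of other genes. Those found most often were Ly6i, I830127L07Rik and Ly6c1. For the transcripts of the other 5 genes listed in the tables, read on their own strand, no stretch of 50 bases was shared with a GENCODE M21 transcript of another gene. Reads from the shared stretches could be divided between genes by the authors' counting, so the Ly6a values are uncertain. Expected counts that were not whole numbers occurred in 5 libraries for Ly6a, 6 for Cd34, 4 for Cd48 and 1 for Cd27. Its 27.2 to 62.0 counts varied with a chi-square per degree of freedom of 0.431 in shSamd14 and 4.54 in control.

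Cd27 (ENSMUSG00000030336; mm10 chromosome 6, 125232622 to 125237010, minus strand) encodes a receptor of multipotent progenitors and lymphoid cells whose ligand is CD70. It had 1.04, 1.38 and 1.52 CPM in shSamd14 replicates 1, 2 and 3, against 0.580, 0.915 and 1.96 CPM in control replicates 1, 2 and 3. Control libraries held both the lowest and the highest value. The log2 fold change of 0.17 (SE 0.37, 95% interval -0.64 to 0.98) did not pass (edgeR, adjusted p = 0.878). Its sign turned without control replicate 1, to -0.14. With 12 to 47 counts a library and a chi-square per degree of freedom of 1.39 in shSamd14 and 9.99 in control, the interval allows changes between 0.640- and 1.97-fold. Control replicate 3, which had the highest Cd27 value, was also the control library with the most Ly6a and Cd34.

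Esam (ENSMUSG00000001946; mm10 chromosome 9, 37528078 to 37538319, plus strand) encodes an immunoglobulin-type adhesion protein. It had 1.36, 2.47 and 1.96 CPM in shSamd14 replicates 1, 2 and 3, against 1.30, 1.79 and 1.67 CPM in control replicates 1, 2 and 3. The groups overlapped, with shSamd14 replicate 1 below 2 of the control libraries. The log2 fold change was 0.28 (SE 0.24, 95% interval -0.25 to 0.80), which did not pass (edgeR, adjusted p = 0.648). Its counts were 34, 59 and 53 in shSamd14 and 27, 41 and 40 in control, with a chi-square per degree of freedom of 4.13 in shSamd14, above counting noise, and 0.753 in control.

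Slamf1 and Cd48 lie in the SLAM gene cluster, 85.1 kb apart by their start sites, and their neighbours were examined for the same direction. Of 12 other genes whose start site is within 300 kb of that of Slamf1, 7 were tested, 6 of them had a positive log2 fold change, and none passed edgeR's test. For 1 of the 6, Vangl2, the direction depended on the unit: its log2 fold change from counts was 0.16 (SE 0.22), with 0.82 TPM in shSamd14 and 0.987 TPM in control. Cd48 was 1 of these 7, and the only one with an unadjusted p under 0.05. The SLAM receptor genes on either side had low changes. Cd84, a receptor of platelets and myeloid cells, had 23.6 TPM in shSamd14 and 22.0 TPM in control, with a log2 fold change of 0.14 (SE 0.08). Ly9, a receptor known from lymphocytes, had 8.67 TPM in shSamd14 and 7.89 TPM in control (log2 fold change 0.15, SE 0.12). Cd244a, the gene of the CD48 ligand, had 3.05 TPM in shSamd14 and 3.21 TPM in control (log2 fold change -0.08, SE 0.16). Slamf7 and Slamf6 averaged at most 0.027 TPM in each group and were not tested. In the Ly6 cluster, Ly6e (log2 fold change 0.08), Ly6c1 (0.26) and Ly6c2 (0.23) did not pass in edgeR, and Ly6c2, a gene of monocytes and neutrophils, was the more abundant of the last pair at 108 TPM in shSamd14 and 90.3 TPM in control.

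**Figure D4:**
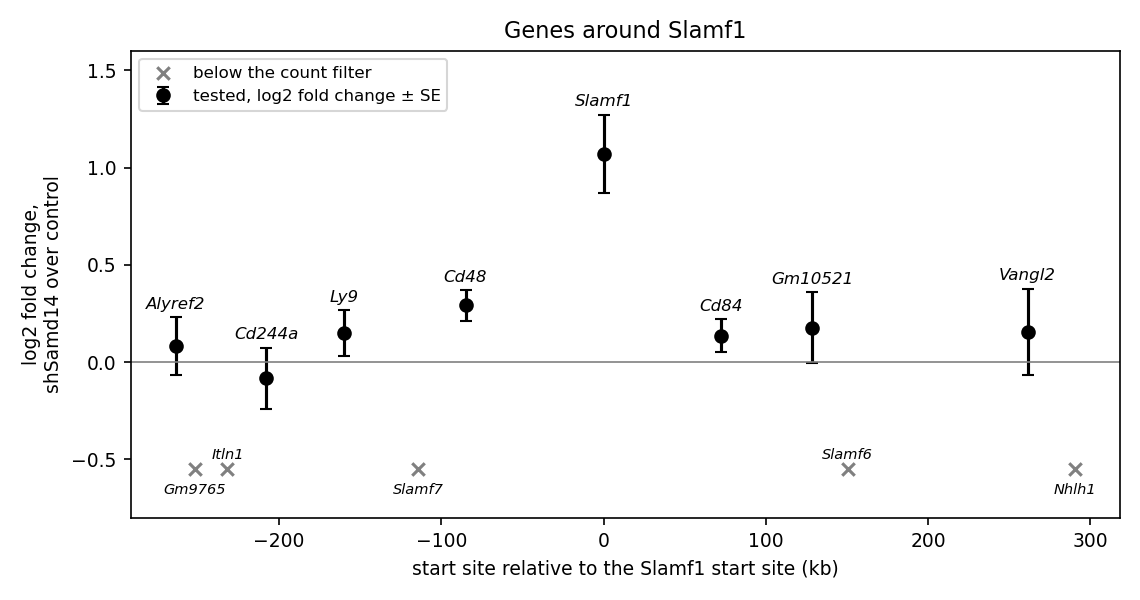
Log2 fold change of shSamd14 over control with its SE for tested genes whose start site is within 300 kb of that of Slamf1 (distance in kb on the x axis). Crosses mark genes below the filter on low counts. Slamf1 stands at 1.07, Cd48 at 0.29, and the other 6 tested genes lie between -0.08 and 0.18.

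Of the receptors and tail-binding proteins related to CD150 and CD48, Ptpn11 rose and none fell. Of 8 genes for other SLAM receptors, the CD48-binding Cd2 among them, 4 were tested and none passed in edgeR, with none at an unadjusted p under 0.05 and none called by DESeq2 or limma-voom. Their median log2 fold change was 0.03, and Cd2 was at 0 counts in all libraries. Slamf8, a SLAM receptor of macrophages, had the smallest p, with 8.46, 6.54 and 4.19 CPM in shSamd14 and 8.98, 8.27 and 9.12 CPM in control (adjusted p = 0.346 in edgeR). Without shSamd14 replicate 1 it passed (log2 fold change -0.73, adjusted p = 0.0411). Of 7 listed and 4 tested genes for adaptors, kinases and phosphatases that bind SLAM receptor tails, Ptpn11 alone passed in edgeR, DESeq2 and limma-voom. It encodes the phosphatase SHP2, and had 199, 200 and 206 CPM in shSamd14 replicates 1, 2 and 3, against 132, 134 and 126 CPM in control replicates 1, 2 and 3, which gave 0.63 on the log2 scale (SE 0.06; adjusted p = 3.83e-05, edgeR). The gene of the adaptor SAP, Sh2d1a, was at 0 counts in all 6 libraries, and Sh2d1b2, of the related adaptor family, was at or below 0.208 CPM.

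Among 28 other surface markers of stem and progenitor cells, 25 were tested, Cd59a rose and none fell in edgeR. Cd59a, an inhibitor of complement, had 14.8, 16.3 and 17.5 CPM in shSamd14 replicates 1, 2 and 3, against 11.8, 11.2 and 10.7 CPM in control replicates 1, 2 and 3. Its log2 fold change was 0.53 (SE 0.10). The adjusted p was 0.0113 with all libraries and 0.0713 without shSamd14 replicate 2 (edgeR). The median of this list was -0.001, and 8 of its genes had an unadjusted p under 0.05, where 15% of all genes tested did. Kit, which is read with Sca-1 in stem cell sorting, had 422 to 474 CPM in shSamd14 and 495 to 656 CPM in control (adjusted p = 0.0943 in edgeR, passed in DESeq2 and, in edgeR, without control replicate 3). Itga2b, the integrin of megakaryocytes and early progenitors known as CD41, had 162 to 172 CPM in shSamd14 and 131 to 157 CPM in control (adjusted p = 0.0985 in edgeR), and passed without control replicate 1. Procr, which encodes the stem cell marker EPCR, had 0.148 to 0.168 CPM in shSamd14 and at most 0.125 CPM in control, below the filter.

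Nuclear factors of stem cells and early progenitors were read next, in a list chosen with earlier results of these data known. Of 20 listed, 17 were tested and none passed in edgeR, with 1 called by DESeq2 (Gfi1b) and none by limma-voom. An unadjusted p under 0.05 was found for 4, where 15% of all genes tested had one. These were Gfi1b, Tal1, Gata2 and Myct1, each higher in shSamd14. The median log2 fold change of the list was 0.15, with 12 of 17 positive, where 51.6% of all genes tested were. Gfi1b, a repressor of megakaryocyte and erythroid progenitors, had the smallest p, with 138 to 156 CPM in shSamd14 and 120 to 128 CPM in control (adjusted p = 0.0821 in edgeR). Gata2, which did not pass with all libraries, passed without control replicate 2 (log2 fold change 0.34, adjusted p = 0.0263 in edgeR). Mecom, a factor that long-term stem cells need, was at or below 0.185 CPM in every library, and Hoxb5, another stem cell gene, was at 0 counts in all of them. Other stem cell factors of the list were present: Hlf averaged 3.57 CPM in shSamd14 and 2.85 CPM in control, Meis1 7.36 CPM in shSamd14 and 6.66 CPM in control, and Mllt3 76.0 CPM in shSamd14 and 77.4 CPM in control.

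The lists around CD27, ESAM, CD34 and the Ly6 genes held no called gene. Among 9 tested genes around CD27, 2 had a positive log2 fold change and the median was -0.03, with none called in edgeR, DESeq2 or limma-voom. Of these 9, Traf2 (higher) and Traf3 (lower) had an unadjusted p under 0.05, where 15% of all genes tested did. Cd70, the CD27 ligand, was at 0 counts in all libraries, and Traf2, an adaptor of the receptor, had the smallest p (log2 fold change 0.21, adjusted p = 0.213 in edgeR). Among 7 tested relatives and partners of ESAM and CD34 the median was 0.05, and among 4 tested Ly6 genes other than Ly6a it was 0.15, with none called in edgeR, DESeq2 or limma-voom and none at an unadjusted p under 0.05. F11r, an adhesion relative of ESAM, had the smallest p among the partners of ESAM and CD34 (log2 fold change 0.25, adjusted p = 0.585 in edgeR). Among the Ly6 genes it was Ly6e, with 233 ± 16.6 CPM in shSamd14 and 221 ± 17.7 CPM in control (SD, n = 3 each; adjusted p = 0.675 in edgeR).

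Markers of the cell types that also carry these proteins were read beside them. Of 14 megakaryocyte markers, 5 rose and none fell in edgeR, all 14 had a positive log2 fold change, and their median was 0.37, where 1.32% of all genes tested rose. DESeq2 called 5, with Ppbp in place of Clec1b, limma-voom called 3 (Pf4, Ppbp and Gp5), and 11 had an unadjusted p under 0.05. Over all genes tested, 15% had an unadjusted p under 0.05 and 51.6% a positive log2 fold change. The summed level of the 14 markers was 597 to 655 CPM in shSamd14 and 499 to 579 CPM in control. The 5 called by edgeR were Pf4, Gp5, Treml1, Vwf and Clec1b, genes of platelet granules and receptors. The megakaryocyte markers thus moved in the direction of Slamf1, and their part in its value was not tested. Positive log2 fold changes were also found in 8 of 10 neutrophil (median 0.12) and 7 of 11 erythroid markers (median 0.12). The same held for 5 of 7 mast cell and basophil markers (median 0.11). For lymphoid markers it was 3 of 3 tested (median 0.15), for endothelial markers 3 of 6 and for macrophage markers 1 of 5. For hepatocyte markers it was 2 of 4 and for stellate and mesenchymal markers 1 of 3. Of 16 lymphoid markers 3 were tested and none passed in edgeR, DESeq2 or limma-voom, with none at an unadjusted p under 0.05. Their sum was 4.27 to 6.30 CPM in shSamd14 and 4.11 to 6.08 CPM in control, and Ncr1, Klrb1c and Gzma were at 0 counts throughout. Of 12 endothelial markers 6 were tested and none passed in edgeR, DESeq2 or limma-voom. An unadjusted p under 0.05 was found for 2, Pecam1, which was higher in shSamd14, and Tek, which was lower. The 12 endothelial markers had a sum of 64.3 to 72.5 CPM in shSamd14 and 67.7 to 69.8 CPM in control. Cldn5 and Sox17 were at 0 counts in all libraries and Cdh5 was at or below 0.251 CPM. Egfl7, with 37.9 ± 5.35 CPM in shSamd14 and 39.1 ± 1.69 CPM in control (SD, n = 3 each), and Pecam1 made up most of that sum, and blood progenitors express both. For 7 tested mast cell and basophil markers (252 to 331 CPM in shSamd14, 249 to 294 CPM in control) and 10 neutrophil markers (3756 to 5579 CPM in shSamd14, 3429 to 5489 CPM in control) none passed in edgeR, DESeq2 or limma-voom, with 2 mast cell and no neutrophil genes at an unadjusted p under 0.05. The 2 mast cell genes were Ms4a2, which was higher in shSamd14, and Prss34, which was lower. Of 11 erythroid markers (3662 to 4133 CPM in shSamd14, 2883 to 3603 CPM in control) none passed in edgeR. DESeq2 called 1, Rhd, which was lower in shSamd14. An unadjusted p under 0.05 was found for 4, of which Hbb-bt and Epb42 were higher and Rhd and Tfrc lower. Within the sum, Hba-a1 averaged 1254.5 CPM in shSamd14 and 801 CPM in control. Hbb-bt averaged 656 CPM in shSamd14 and 386 CPM in control, and Tfrc 824 CPM in shSamd14 and 934 CPM in control. Macrophage markers summed to 34.3 to 49.5 CPM in shSamd14 and 31.1 to 53.8 CPM in control, hepatocyte markers to 29.3 to 37.2 CPM in shSamd14 and 30.3 to 53.7 CPM in control, and stellate and mesenchymal markers to 26.2 to 29.9 CPM in shSamd14 and 25.4 to 31.6 CPM in control. None of these passed in edgeR, DESeq2 or limma-voom, and 1 macrophage gene (Vcam1, higher in shSamd14) had an unadjusted p under 0.05.

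**Figure D5:**
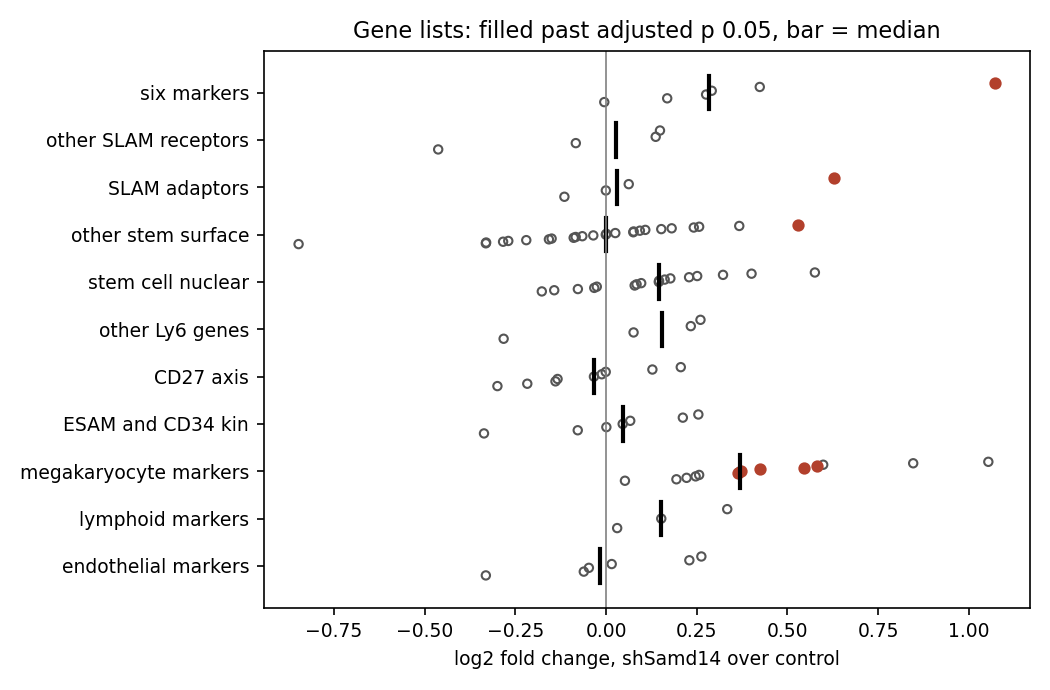
Log2 fold change of shSamd14 over control for the tested genes of each list (circles; filled where the adjusted p of edgeR's quasi-likelihood test is under 0.05), with the list median as a bar. Filled circles are Slamf1 among the 6 markers, Ptpn11, Cd59a and 5 megakaryocyte markers.

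Across the 6 libraries, Slamf1 and Cd48 varied together (Pearson r = 0.93 of log2 CPM), and so did Ly6a and Cd27 (r = 0.80). Slamf1 and Cd34 did not (r = -0.21). These values describe 6 libraries that share their group difference and carry no test. The genes most like Slamf1 over the 6 libraries were Sec31b (r = 0.997), Timm29 (0.995) and Cep41 (0.989), none of which passed in edgeR (adjusted p 0.15 to 0.22). Sec31b, a coat protein gene of transport vesicles, averaged 1.68 CPM in shSamd14 and 1.08 CPM in control. Those most like Cd48 were Smarcc1 (0.996), Wdr89 (0.993) and Tedc1 (0.988). For Cd34 they were Gria3 (0.996), Phactr2 (0.995) and Acvr1 (0.989), and for Ly6a Natd1 (0.994), Dcaf11 (0.990) and Cldn13 (0.988). Cd27 was closest to Lat2 (above 0.999), Slc25a29 (0.992) and Fut7 (0.992), and Esam to Mbnl3 (0.973), Dcun1d2 (0.965) and Nudt4 (0.963). The 3 genes named for each marker are the extreme of a search over all genes, on 6 points.

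The tables also give each gene's transcript length weighted by the abundance of its isoforms, a readout of isoform use. Slamf1 and Ly6a have 1 listed transcript each, of 2693 and 819 bases, and carry no such information. Cd34 has 2 listed transcripts, which in GENCODE M21 measure 2454 bases with 382 codons and 2554 bases with 325 codons. Its weighted length was 2515, 2532 and 2536 bases in shSamd14 replicates 1, 2 and 3, and 2535, 2524 and 2519 bases in control replicates 1, 2 and 3 (p = 0.9, two-sided exact permutation test, smallest possible p 0.1). Every value lay nearer to the longer transcript, which codes for the shorter protein, if those lengths held in the authors' annotation. For Cd48 the means were 1174 bases in shSamd14 and 1176 bases in control (p = 0.4 in the same exact permutation test). Cd27 ranged from 1260 to 1492 bases in shSamd14 and from 983 to 1559 bases in control, so that its TPM in control replicate 2 (1.59) was closer to that of control replicate 3 (2.09) than the counts of 21 and 47 were. Esam kept 1865 bases in 4 of 6 libraries and differed in shSamd14 replicate 2, at 1741 bases, and control replicate 1, at 1855 bases.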

How the data were processed

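One gene table per library was used as the authors deposited it. Per the file headers these hold RSEM expected counts, TPM, FPKM and gene lengths. In expected counts, reads that map to several genes are shared between them. Tools listed in the submitters' processing notes, with no role given, are RSEM 1.2.15, Bowtie 1.0.1 and CASAVA 1.8.2, and the build is mm10. The sources used here do not give the read length, the annotation release or whether strand was used. FPKM, as deposited, served only for the ratio of Slamf1 to Cd48. Length and effective length, as deposited, were equal to within rounding. Symbols, positions and transcripts came from GENCODE M21 (GRCm38, the assembly of mm10), which named 23580 of 24376 IDs. For genes with 1 listed transcript, 61.2% had the same length there as in the tables.

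Expected counts were rounded and tested with edgeR 4.0.16 (R 4.3.3): filterByExpr (minimum count 10, minimum total 15), TMM factors, robust dispersions and the two-sided quasi-likelihood test, with Benjamini-Hochberg adjustment over 12670 genes. The script was tested on simulated data. Each SE was taken as |log2 fold change| over the root of the F statistic. The 3′ UTR is the longest annotated one of at least 50 bases. A marked low-count gene has fewer than 150 counts in each library.

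The members, gene lists and 3′ UTR words were chosen with earlier results of these data known. Named genes are the members, Samd14, up to 4 genes past the threshold per list or the one of smallest p, and the 3 genes with the highest Pearson r per member (log2 CPM, prior count 2, mean of at least 1 CPM, no predicted genes). Other genes are named as cluster neighbours or markers, or after their values were seen. Alternatives used DESeq2 1.42.0, limma 3.58.1 and other scalings, filters and libraries.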

Additional observations from a re-analysis of the deposited data

How the results depend on the processing

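Slamf1 kept a positive log2 fold change in all 17 alternatives and passed in 13. It missed the threshold in limma on log2(TPM + 0.1) (1.03, adjusted p = 0.0501), in limma on log2(TPM + 1) with no filter (0.67, adjusted p = 0.132) and in 2 fits with 1 library left out, where its value ranged from 0.94 to 1.25. Cd48 was positive in all 17 and passed in DESeq2 (0.29, adjusted p = 0.0456), with no filter on low counts (0.29, adjusted p = 0.0133), with the replicate number as a block (0.29, adjusted p = 0.0108) and, among fits with 1 library left out (0.21 to 0.34), without shSamd14 replicate 3. Cd34 turned positive without shSamd14 replicate 1 (0.12) and without control replicate 3 (0.08), with a lowest value of -0.14. Cd27 turned negative without control replicate 1 (-0.14) and reached 0.79 with another library left out. Ly6a (0.25 to 0.75) and Esam (0.06 to 0.47) stayed positive and below the threshold in these fits. The number of genes called was 327, and 682 with the replicate block, 136 in limma on log2(TPM + 1), 130 with a pseudocount of 0.1, 16 with no filter on TPM, and 128 to 283 with 1 library left out. Without shSamd14 replicate 2 there were 128 and without control replicate 1 there were 153. DESeq2 called 418 genes and limma-voom 273. The labels number the replicates alike in both groups without saying what a number shares, and deviations of same-numbered libraries correlated at -0.07, 0.15 and 0.27, with 2 of 3 matching their own number best. The block changed no other call among the 6 genes. With 1 library left out, 0 to 1 other SLAM receptor, 1 SLAM adaptor gene, 0 to 2 stem surface genes and 0 to 1 stem cell nuclear gene were called, and 0 in the Ly6, CD27 and ESAM lists. The Slamf1 to Cd48 quotient was 1.63 to 1.89 with 1 library left out. From FPKM or CPM it was 1.72. A ratio of 2 genes within a library hardly depends on these units, so that value is no check. The causes were not tested. Effective lengths gave the same weighted lengths. Slamf1, Ly6a, Cd27 and Esam rest on few counts, where 3 counts correspond to 0.111 to 0.145 CPM, and in at least 1 group of each of Ly6a, Cd27 and Esam libraries differed by more than counting noise.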
